A study of Mus musculus with 12 samples.

Results

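The 10 genes described here encode 6 homeostatic or stromal chemokines (Cxcl12, Cxcl13, Cxcl16, Ccl19, Ccl21a and Cx3cl1) and 4 of their receptors (Cxcr4, Cxcr5, Cxcr6 and Cx3cr1). They were chosen by name, and all 10 were present among the 750 genes of the Mouse PanCancer Immune panel of NanoString, whose nCounter assay hybridises a barcoded probe to each transcript and counts the barcodes with no amplification step. Total RNA was measured in 3 groups: mT3-2D tumours of SCID hosts, which are immunodeficient (5 samples), mT3-2D tumours of wild-type (WT) hosts, which are immunocompetent (5 samples), and the cultured mT3-2D cells (2 samples). All tumours grew under the skin from this 1 line of the KPC mouse model of pancreatic cancer, whose tumours are started by Cre in pancreatic cells. SCID hosts have no mature B or T lymphocytes but keep NK and myeloid cells. The design text sets the tumours of the 2 hosts against each other. Strain, age and sex of the hosts are not given in the labels, nor is the number of animals, and tumours at this site lie outside the pancreas.

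Chemokines are small secreted or membrane-bound proteins that guide leukocytes through G protein-coupled receptors. The homeostatic ones are made by stromal, endothelial and lymphoid tissue cells without an inflammatory stimulus. Cxcl12 from fibroblasts and perivascular cells holds and attracts cells that carry Cxcr4; Ccl19 and Ccl21a, from lymphatic endothelium and reticular cells of lymph nodes, draw Ccr7-positive T cells and dendritic cells; Cxcl13 places Cxcr5-positive B cells in follicles. Cxcl16 and Cx3cl1 are made as transmembrane proteins that can be shed, and bind Cxcr6 on T, NK and NKT cells and Cx3cr1 on monocytes and macrophages.

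The RefSeq promoter table of build GRCm38.p6 held 8 of the 10 genes. The 200 bases before the start site are printed for 4 of them: the pair of Ccr7 ligands, which lie close together on chromosome 4, the receptor called between hosts (Cxcr6), and the receptor Cxcr4, which was higher in tumours of both hosts than in the line. Capitals mark matches, on either strand, to a TATA box (TATAAA), an interferon-gamma activated site (TTCNNNGAA), an interferon-stimulated response element (GAAA, any 2 bases, GAAA) or a loose kappaB pattern (GGG, any 5 bases, CC).
Ccl19, chr4:42756366-42756565, minus strand: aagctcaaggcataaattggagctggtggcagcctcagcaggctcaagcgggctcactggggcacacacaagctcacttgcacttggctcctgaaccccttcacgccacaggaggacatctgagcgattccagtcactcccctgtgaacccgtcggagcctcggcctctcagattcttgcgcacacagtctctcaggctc
Ccl21a, chr4:42773992-42774191, minus strand: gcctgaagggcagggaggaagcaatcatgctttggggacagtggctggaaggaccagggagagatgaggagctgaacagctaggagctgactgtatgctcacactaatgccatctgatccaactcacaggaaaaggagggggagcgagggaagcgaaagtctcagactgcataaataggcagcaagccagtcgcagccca
Cxcr6, chr9:123806277-123806476, plus strand: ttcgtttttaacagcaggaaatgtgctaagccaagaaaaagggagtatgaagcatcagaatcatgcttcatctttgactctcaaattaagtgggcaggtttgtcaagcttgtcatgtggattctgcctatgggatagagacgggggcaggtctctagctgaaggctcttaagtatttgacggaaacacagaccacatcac
Cxcr4, chr1:128592300-128592499, minus strand: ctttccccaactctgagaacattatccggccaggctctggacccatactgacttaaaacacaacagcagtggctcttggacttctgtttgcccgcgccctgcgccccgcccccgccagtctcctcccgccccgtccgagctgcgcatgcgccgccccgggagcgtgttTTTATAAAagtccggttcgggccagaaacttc
In these windows only Cxcr4 held a match, to TATAAA on both strands, the 2 matches overlapping. Of all 32851 promoters of the table, 9.96% held TATAAA within the same 200 bases, 5.49% the interferon-gamma activated site, 2.27% the response element and 41.4% the kappaB pattern. A match is one of letters only, and its absence says only that these letters are not in this window.

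Each sample held 368925 to 558445 probe counts, recovered as whole numbers from the deposited signal. Background was taken as 33.8 counts, the 95th percentile of 31 lymphocyte genes in the cultured cells. Leukocyte genes followed the labels: 0 of 7 pan-leukocyte genes were above background in either line sample, against 7 of 7 in at least 1 tumour of each host, while 5 of 5 epithelial genes were above it in all samples. WT tumours 2 and 3 gave probe counts that were nearly the same, their chi-square over genes being 1.2 per degree of freedom (p = 1.27e-04), against 17.1 to 84.5 for the other 19 tumour pairs within a host. The numbers in their titles differ and belong to different number series. WT tumours 2 and 3 were averaged into 1 sample, leaving n = 4 WT, n = 5 SCID and n = 2 line samples. Some tumours of a host share a number in their titles, which the labels do not explain. Since the labels name no animals, each p-value reflects the spread among these samples, which may be technical. In bulk RNA, fewer cells of a type and less RNA per cell cannot be told apart.

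**Figure D1:**
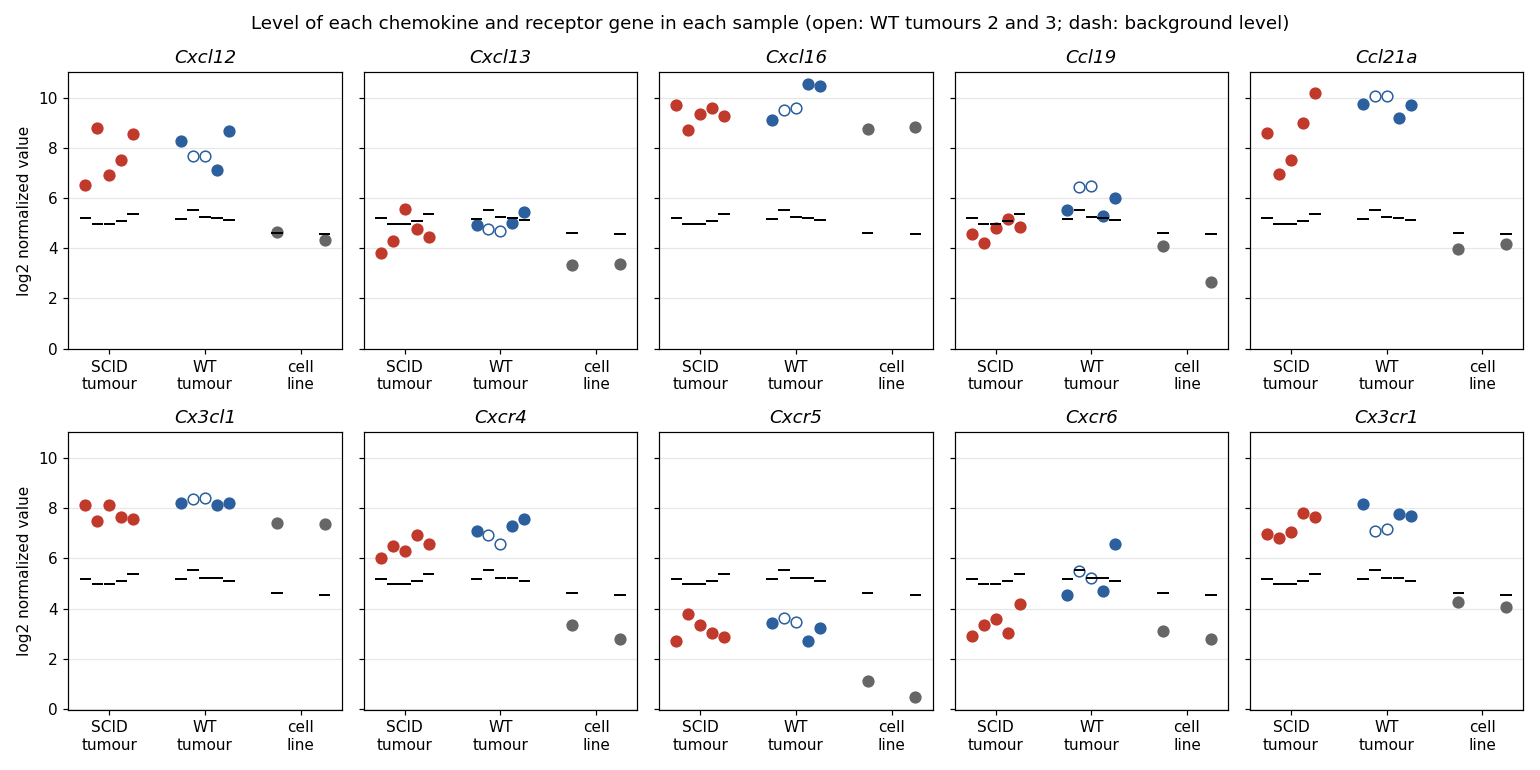
Log2 normalized value (vertical axis) of each of the 10 genes in SCID tumours, WT tumours and cell line samples, 1 point per sample. Open points are WT tumours 2 and 3, and short dashes mark each sample's background level. Ccl19 and Cxcr6 do not overlap between SCID and WT tumours, Ccl21a in SCID tumour 5 stands at 10.19, above all WT tumours, and Cxcr5 lies below background in all samples.

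Of the 10 genes, 2 were lower in SCID tumours than in WT tumours and 0 were higher (limma adjusted p under 0.05 over 750 genes): the Ccr7 ligand Ccl19 and the receptor Cxcr6. Over all genes 15.9% were called, 15.7% lower and 0.133% higher in SCID tumours, so the share among these 10 is near that of the panel. The median log2 difference of the 10 genes was -0.52, against -0.33 over all 750 genes. An exact permutation test of each gene, two-sided and unadjusted over 10 tests, gave p = 0.0159 for Ccl19 and Cxcr6, the smallest that 5 against 4 samples allow. That value means that the 2 hosts do not overlap on the deposited scaling, and the share of all 750 genes reaching it was not computed. The same exact test gave p = 0.0317 for Cxcr4 and p = 0.0476 for Cx3cl1, which did not pass the limma threshold.

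Ccl19 had log2 values of 4.57, 4.21, 4.79, 5.18 and 4.86 in SCID tumours 1 to 5, against 5.51, 6.44, 6.47, 5.30 and 5.99 in WT tumours 1 to 5. Every SCID tumour lay below every WT tumour, though the gap between SCID tumour 4 and WT tumour 4 was narrow. Both were counted 36 times, so the gap between them comes from the deposited scaling alone. The mean was 4.72 ± 0.36 (SD, n = 5) in SCID tumours and 5.81 ± 0.52 (SD, n = 4) in WT tumours, a log2 difference of -1.09 (SE 0.27, limma adjusted p = 0.0218). These are low counts: 20 to 36 per SCID tumour and 36 to 80 per WT tumour, with 1 of 5 SCID and 4 of 4 WT samples above background. With values raised to background the difference was -0.68 (limma adjusted p = 0.0881), without WT tumour 5 it was -1.03 (limma adjusted p = 0.0694), and without the averaged WT pair -0.88 (limma adjusted p = 0.0566).

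Ccl21a, the second Ccr7 ligand, was well above background in all tumours and spread widely among SCID tumours. Its log2 values were 8.60, 6.94, 7.51, 9.01 and 10.19 in SCID tumours 1 to 5, against 9.77, 10.05, 10.09, 9.20 and 9.69 in WT tumours 1 to 5. The SCID tumours spanned 9.52-fold and the WT samples 1.83-fold; 4 SCID tumours lay below all WT tumours and SCID tumour 5 above all of them. The log2 difference was -1.23 (SE 0.56, 95% confidence interval -2.48 to 0.02, limma adjusted p = 0.162), and without SCID tumour 5 it was -1.67 (limma adjusted p = 0.0252). SCID tumour 5 also had the highest summed level among SCID tumours of the pan-leukocyte list (1538.5 normalized units, against 643.9 to 1050.9 in the other 4), of the dendritic cell list (416.2 against 166.9 to 269.2) and of the endothelial list (2273.7 against 1125.7 to 1870.0). It was highest for macrophage (3158.2), fibroblast (58387.4) and T cell sums (452.6) too, lowest for NK cell genes (742.5), and the only SCID tumour whose title number belongs to the smaller of the number series. The part of these in the Ccl21a value was not tested. The RefSeq table lists 5 other protein-coding genes under a Ccl21 name, and signal of such copies cannot be told apart from Ccl21a without the probe sequence. Ccr7, the receptor of both ligands, was no member of the set: it averaged 5.41 ± 0.51 (SD, n = 5) in SCID tumours and 6.28 ± 0.53 (SD, n = 4) in WT tumours, a log2 difference of -0.86 (SE 0.31, limma adjusted p = 0.088).

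Cxcr6, which marks activated and resident T cells and NKT cells, passed the test on counts that were mostly not above background. It was counted 7, 11, 13, 8 and 15 times in SCID tumours 1 to 5, against 22, 33, 33, 24 and 93 times in WT tumours 1 to 5 and 12 and 10 times in the line. The SCID counts thus lay within a few counts of the cultured tumour cells, and WT tumour 5 stood above the other WT tumours. On the log2 scale the difference was -1.89 (SE 0.42, limma adjusted p = 0.0131). All SCID tumours were at background and 1 of 4 WT samples was above it, so the bound is at least 1.13-fold lower in SCID tumours, or at least 1.92-fold with background set at 20 counts. With values raised to background the difference was -0.47 (limma adjusted p = 0.305), and with values raised to 20 counts -0.94 (limma adjusted p = 0.106); without WT tumour 5 it was -1.46 (limma adjusted p = 0.0217).

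Leukocyte lists differed in how far they followed Cxcr6, where 15.7% of all genes were lower in SCID tumours. Of 20 T cell genes, 13 were lower in SCID tumours and 0 higher, and the summed level of the list was 334.5 to 452.6 normalized units in SCID tumours, 625.6 to 1018.0 in WT tumours and 247.3 to 287.5 in the line, with no gene at 0 counts. Among these genes 3 of 20 were above background in any SCID tumour and 13 of 20 in any WT tumour. The line's 3 of 20 is largely set by the background rule, which uses T and B cell genes in the line. Of 11 NK cell genes 2 were lower, and the list's sum overlapped between hosts, at 742.5 to 1590.1 in SCID tumours and 840.9 to 1044.5 in WT tumours. The median NK cell sum was higher in SCID tumours, at 1360.1 against 945.2 in WT tumours. Of 7 pan-leukocyte genes 3 were lower, with a median log2 difference of -0.82, against -0.85 for the T cell list and -0.75 for the dendritic cell list, of which 1 of 5 was lower. The median log2 differences of the NK cell and macrophage lists were -0.18 and -0.37, near the -0.33 of all 750 genes. Macrophage sums were 1956.4 to 3158.2 in SCID tumours and 3085.8 to 5726.6 in WT tumours, with 2 of 13 genes lower. The part of these cell types in the Cxcr6 value was not tested.

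**Figure D2:**
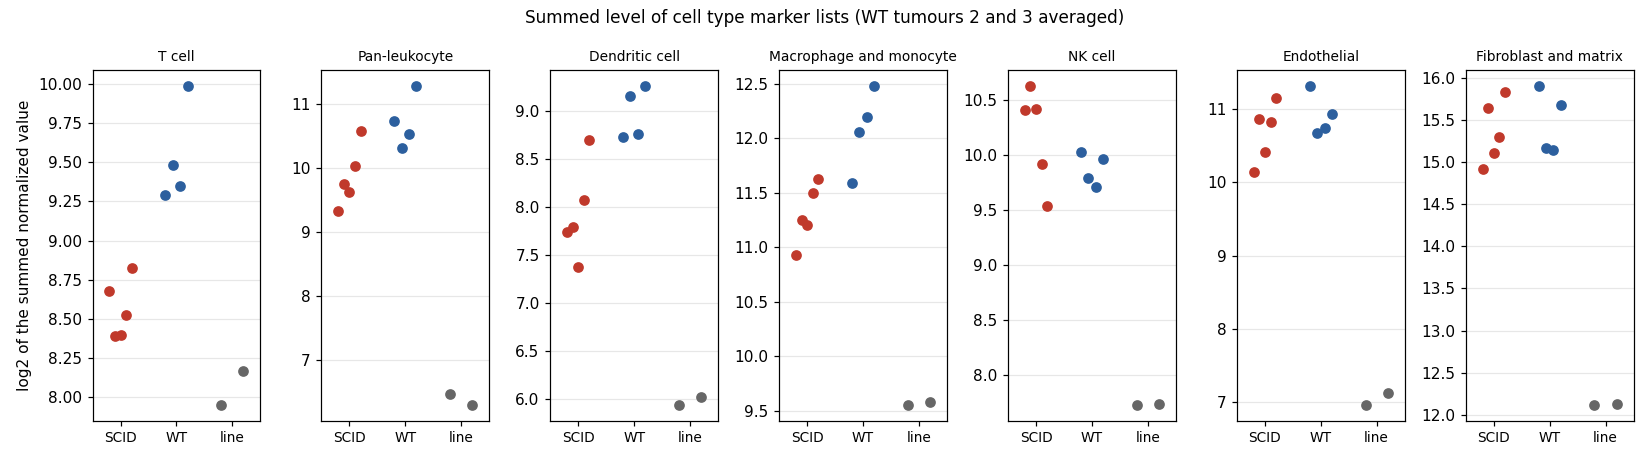
Log2 of the summed normalized value of 7 marker lists (vertical axes, each with its own range) in SCID tumours, WT tumours and cell line samples, 1 point per sample, with WT tumours 2 and 3 as 1 point. T cell and dendritic cell sums do not overlap between the hosts, and the sums of the other lists do.

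Cxcl16, the ligand of Cxcr6, was strong in the line as well as in tumours. It read 9.71, 8.71, 9.36, 9.58 and 9.29 in SCID tumours 1 to 5, against 9.12, 9.50, 9.58, 10.53 and 10.48 in WT tumours 1 to 5. WT tumours 4 and 5 were high, and the other WT tumours lay within the SCID range. The log2 difference was -0.59 (SE 0.33, 95% confidence interval -1.31 to 0.13, limma adjusted p = 0.236).

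Cxcl12, the stromal ligand of Cxcr4, did not separate the hosts. Its values were 6.54, 8.79, 6.90, 7.51 and 8.56 in SCID tumours 1 to 5, against 8.28, 7.67, 7.68, 7.11 and 8.67 in WT tumours 1 to 5. SCID tumours 2 and 5 reached the upper WT values, and the SCID group spanned 4.75-fold. The log2 difference was -0.27 (SE 0.50, 95% confidence interval -1.38 to 0.84, limma adjusted p = 0.744). The fibroblast and endothelial marker lists had 0 of 10 and 0 of 10 genes called between hosts, with fibroblast sums of 30821.0 to 58387.4 normalized units in SCID tumours and 36052.3 to 61373.4 in WT tumours.

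Cxcr4 values were 6.02, 6.50, 6.27, 6.94 and 6.56 in SCID tumours 1 to 5, against 7.08, 6.93, 6.56, 7.30 and 7.57 in WT tumours 1 to 5. The groups overlapped through SCID tumour 4, which exceeded the averaged WT pair. The mean was 6.46 ± 0.34 (SD, n = 5) in SCID tumours and 7.17 ± 0.35 (SD, n = 4) in WT tumours, a log2 difference of -0.72 (SE 0.23, 95% confidence interval -1.22 to -0.21) that missed the threshold (limma adjusted p = 0.0586). It passed without SCID tumour 4 (-0.84, limma adjusted p = 0.0402) and without the averaged WT pair (-0.86, limma adjusted p = 0.0454). It was -0.58 without WT tumour 5 (limma adjusted p = 0.18), -0.11 with every sample scaled to its median (limma adjusted p = 0.724), -0.40 with TMM factors (limma adjusted p = 0.257) and -0.39 with edgeR (adjusted p = 0.259).

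Cx3cl1 was the member with the least spread in tumours. It read 8.13, 7.48, 8.14, 7.65 and 7.56 in SCID tumours 1 to 5, against 8.22, 8.37, 8.39, 8.11 and 8.19 in WT tumours 1 to 5. SCID tumours 1 and 3 lay just above the lowest WT tumour and the other 3 below all WT tumours. The log2 difference was -0.43 (SE 0.19, limma adjusted p = 0.144). Its receptor gene Cx3cr1, carried by monocytes and macrophages, averaged 7.26 ± 0.44 (SD, n = 5) in SCID tumours and 7.69 ± 0.42 (SD, n = 4) in WT tumours, with a log2 difference of -0.43 (SE 0.27, limma adjusted p = 0.299).

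The B cell follicle pair was at or near background in every group. Cxcl13 was counted 13, 21, 51, 27 and 18 times in SCID tumours, against 29, 20, 23, 29 and 43 times in WT tumours and 14 and 15 times in the line. SCID tumour 3 and WT tumour 5 were above background and no other sample was. The log2 difference between hosts was -0.46 (SE 0.32, limma adjusted p = 0.355). Cxcr5 had 6 to 15 counts in SCID tumours, 6 to 10 in WT tumours and 2 to 3 in the line, all at background, so no fold is given. B cell genes were as low: 0 of 11 were above background in any SCID tumour and 2 of 11 in any WT sample.

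**Figure D3:**
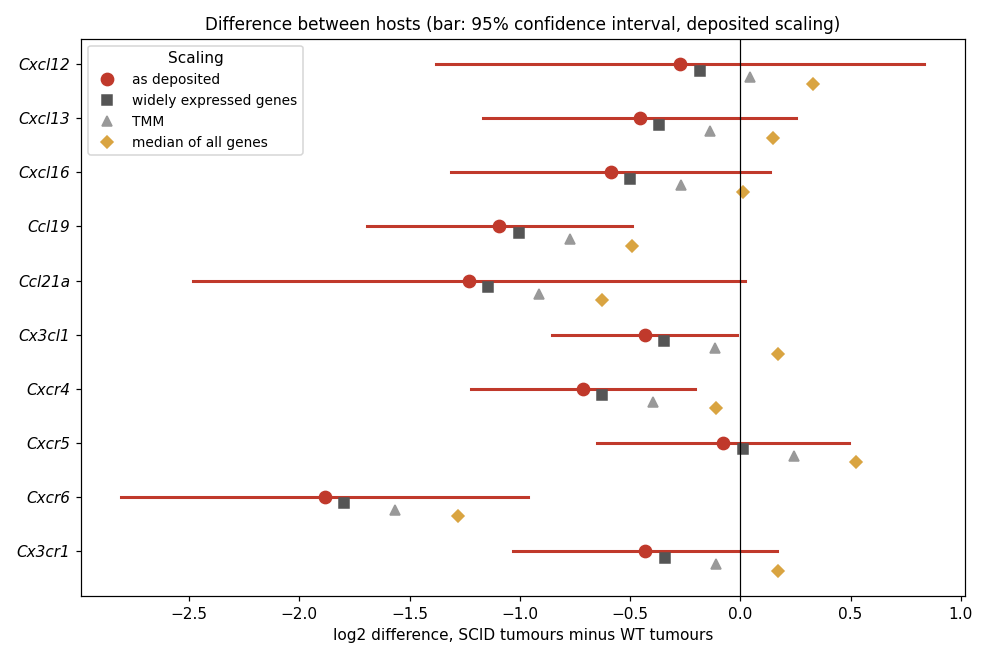
Log2 difference of each gene, SCID tumours minus WT tumours (horizontal axis), with the 95% confidence interval for the deposited scaling and points for 3 other scalings. Ccl19, Ccl21a, Cxcr4 and Cxcr6 stay below 0 under each of the 4 scalings, and the other 6 genes reach values above 0 when samples are scaled to their median.

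How the samples were scaled mattered for direction. Scaling every sample to its median gave a median log2 difference of 0.28 over all genes and of 0.08 over the 10 genes, against -0.33 and -0.52 as deposited, and left 1 gene called, Cxcr6 (-1.28, limma adjusted p = 0.0273), with Ccl19 at -0.49 (limma adjusted p = 0.204). TMM factors on the recovered counts left Cxcr6 called (-1.57, limma adjusted p = 0.0231) and Ccl19 at -0.77 (limma adjusted p = 0.0819). Scaling on 63 widely expressed genes kept both calls.

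Of the other chemokine ligands and receptors on the panel, 9 of 44 were lower in SCID tumours, 0 were higher and 35 were not called, with a median log2 difference of -0.61. The largest falls were those of Cxcl9 and Cxcl10, interferon-induced ligands of Cxcr3, and of Ccl5, an attractant of T cells and monocytes. Cxcl9 was at background in all SCID tumours and at least 33.6-fold lower (limma adjusted p = 1.01e-04), Cxcl10 had a log2 difference of -3.15 (SE 0.35, limma adjusted p = 8.83e-04) and Ccl5 one of -1.86 (SE 0.45, limma adjusted p = 0.02). In a list of 18 genes of lymphoid tissue organisation, such as the lymphotoxins and their receptor, 7 were lower, 0 higher and 11 not called, with a median of -0.48.

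Against the cultured line, all 10 genes had higher mean values in tumours of both hosts, in the order WT tumours, SCID tumours, line. In SCID tumours 7 of 10 were called higher, where 54.4% of all genes were called, 51.6% higher and 2.8% lower. In WT tumours 10 of 10 were called higher, where 69.7% of all genes were called, 67.1% higher and 2.67% lower. Both comparisons share the 2 line samples. The median log2 difference of the 10 genes was 1.85 for SCID tumours and 2.43 for WT tumours, against 0.81 and 1.21 over all genes. These balances turned with the scaling. Scaled to the median, SCID tumours had 481 genes called lower and 101 higher (members 3 lower, 4 higher), and WT tumours 483 lower and 106 higher (members 3 lower, 3 higher), with medians of -1.20 and -1.40 over all genes and -0.15 and -0.17 over the members. With TMM, SCID tumours had 119 lower and 212 higher (members 5 higher), and WT tumours 148 lower and 249 higher (members 7 higher).

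Apart from Cxcr5, which stayed at background, the genes called higher in tumours of both hosts under the deposited, widely expressed and TMM scalings were Ccl21a, Cxcl12, Cxcr4 and Cx3cr1. Under median scaling Cxcl12 was not called in WT tumours (0.84, limma adjusted p = 0.158) and was 1.17 in SCID tumours (limma adjusted p = 0.0479). The other 3 stayed called but smaller: for SCID and WT tumours the log2 differences were 2.37 and 3.0 for Ccl21a, 1.40 and 1.51 for Cxcr4, and 1.09 and 0.92 for Cx3cr1. The bounds that follow hold for the deposited scaling. Ccl21a had 22 and 26 counts in the line and was at least 14.7-fold higher in SCID tumours and at least 34.4-fold higher in WT tumours (limma adjusted p = 2.2e-04 and 2.88e-05). Cxcr4 had 14 and 10 counts in the line and was at least 3.69-fold and at least 6.06-fold higher in SCID and WT tumours. Cx3cr1, at 27 and 24 counts in the line, was at least 6.41-fold and at least 8.64-fold higher. Cxcl12 read 4.65 and 4.33 in the line, 1 of the 2 just above background, and differed by 3.17 (SE 0.60) in SCID tumours and by 3.44 (SE 0.62) in WT tumours on the log2 scale. Fibroblast, endothelial and macrophage lists moved with these genes: 10 of 10, 10 of 10 and 11 of 13 were higher in SCID tumours than in the line, and 10 of 10, 10 of 10 and 12 of 13 in WT tumours; their part was not tested.

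Cxcl16 and Cx3cl1 were the members that the cultured tumour cells themselves carried. Cxcl16 averaged 9.33 ± 0.39 (SD, n = 5) in SCID tumours and 9.92 ± 0.70 (SD, n = 4) in WT tumours, against 8.75 and 8.85 in the line. Cx3cl1 averaged 7.79 ± 0.32 (SD, n = 5) in SCID tumours and 8.23 ± 0.11 (SD, n = 4) in WT tumours, against 7.41 and 7.37 in the line. Neither was called in SCID tumours (log2 differences 0.53 and 0.40, limma adjusted p = 0.261 and 0.147) and both were in WT tumours (1.12 and 0.83, limma adjusted p = 0.0272 and 0.00721). Scaling on widely expressed genes lost both WT calls (0.84 and 0.55, limma adjusted p = 0.0843 and 0.0673). The Cxcl16 call was also lost with TMM (0.08, limma adjusted p = 0.867) and edgeR (0.19, adjusted p = 0.692). It was lost too without WT tumour 4 (limma adjusted p = 0.0593) or WT tumour 5 (limma adjusted p = 0.0621). The Cxcl16 log2 difference in WT tumours was 1.07 without line sample 1 and 1.17 without line sample 2. With 1 line sample left, neither fit shows that the call held. Scaling to the median turned the log2 differences of both genes negative, to -1.47 and -1.60 in SCID tumours and -1.49 and -1.77 in WT tumours, so whether tumours held more or less of these transcripts than the line depends on the scaling.

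Ccl19 had 24 and 9 counts in the line and was at least 1.11-fold higher in SCID tumours and at least 2.36-fold higher in WT tumours (limma adjusted p = 0.0167 and 3.94e-04). Its SCID difference leaned on line sample 2: without it the log2 difference was 0.62, with 1 line sample left. The SCID call of Ccl19 was lost with TMM (0.63, limma adjusted p = 0.219), edgeR (0.48, adjusted p = 0.399) and values raised to background (0.55, limma adjusted p = 0.0751). Cxcl13, above background in 1 of 4 WT samples, was at least 1.37-fold higher in WT tumours (limma adjusted p = 0.00281). That call was lost with TMM (0.64, limma adjusted p = 0.173) and edgeR (0.64, adjusted p = 0.231). In SCID tumours Cxcl13 passed the test (limma adjusted p = 0.0185) with a mean below the background bound. That log2 difference was 1.19 without line sample 1 and 1.24 without line sample 2. Each of these fits leaves 1 line sample, so neither shows that the call held. The SCID call was lost with TMM (0.50, limma adjusted p = 0.295) and edgeR (0.64, adjusted p = 0.259). Cxcr5 passed in both hosts with all samples at background. With values raised to background it still differed by 0.64 in WT and 0.54 in SCID tumours, as background lies higher in tumours on this scale. Bounds as small as those of Ccl19 in SCID tumours and of Cxcl13 therefore do not show a rise by themselves. Cxcr6 was at least 1.64-fold higher in WT tumours (limma adjusted p = 0.00183), with 1 of 4 WT samples above background. This bound is likewise too small to show a rise by itself. For Cxcr6, SCID tumours and the line were both at background. All 4 genes had negative log2 differences for WT tumours under median scaling, and Ccl19, Cxcl13 and Cxcr6 also for SCID tumours.

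**Figure D4:**
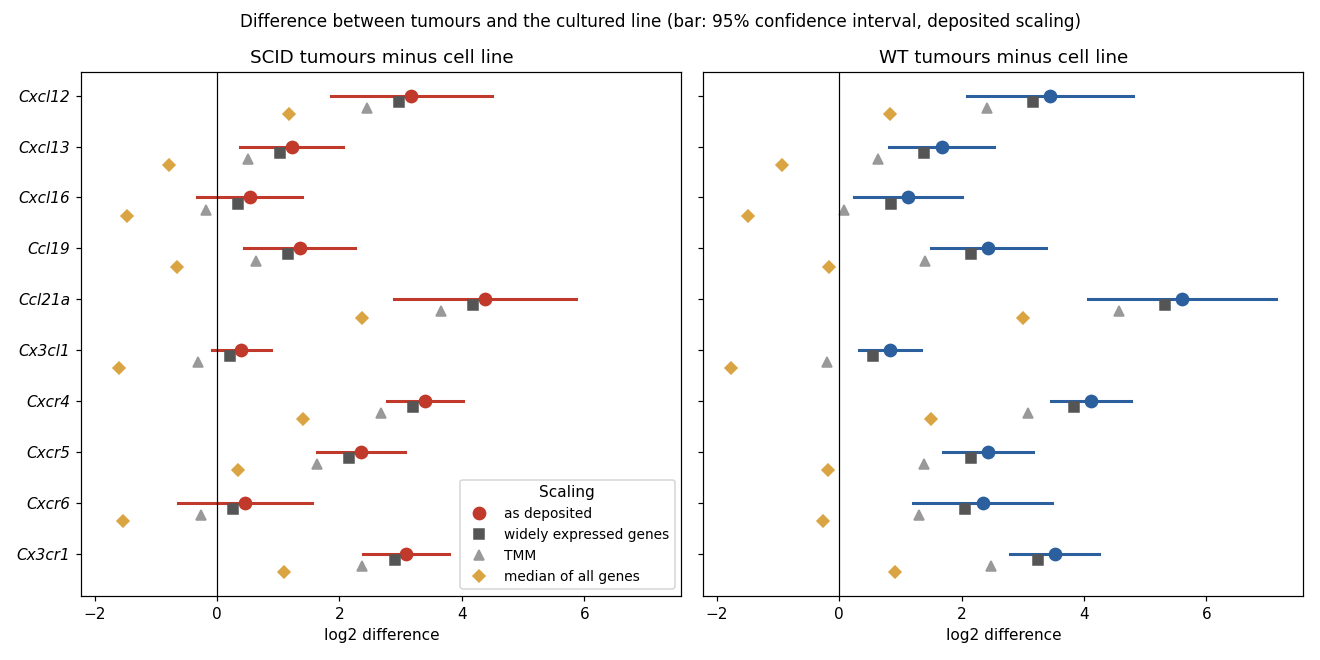
Log2 difference from the cell line (horizontal axis) of each gene in SCID tumours (left) and WT tumours (right), with the 95% confidence interval for the deposited scaling and points for 3 other scalings. Ccl21a, Cxcl12, Cxcr4 and Cx3cr1 are above 0 under all 4 scalings in both panels, and Cxcl16 and Cx3cl1 fall below 0 when samples are scaled to their median.

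The members did not vary as 1 block across tumours. Over the 9 tumour samples, which share library scaling and 2 hosts, the highest Pearson correlations between members were those of Ccl19 with Cxcr6 (0.80), Cxcr4 with Cxcr6 (0.75), Ccl19 with Ccl21a (0.73) and Cxcr4 with Cx3cr1 (0.72). After each host's mean was removed they were 0.38, 0.32, 0.55 and 0.62. For ligand and receptor they were 0.43 for Cxcl12 with Cxcr4, 0.55 for Cxcl16 with Cxcr6 and 0.09 for Cx3cl1 with Cx3cr1, and within hosts 0.46, 0.25 and -0.40. Cxcl12 and Cx3cl1 ran in opposite directions within hosts (-0.75). Cxcr6 was above background in 0 of 5 SCID and 1 of 4 WT samples, so the correlations of its pairs rest on values mostly at background.

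**Figure D5:**
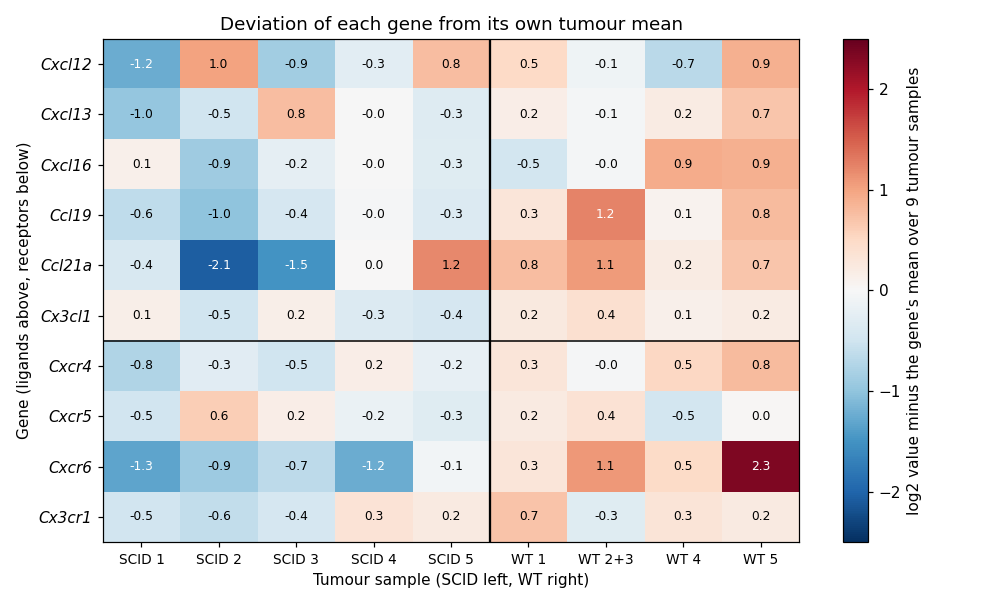
Deviation of each gene (rows, ligands above receptors) from its own mean over the 9 tumour samples, in log2 units, for SCID tumours (left of the line) and WT tumours (right), with WT tumours 2 and 3 averaged. Ccl21a ranges from -2.06 in SCID tumour 2 to 1.19 in SCID tumour 5, and Cxcr6 reaches 2.33 in WT tumour 5.

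Among 506 other genes above background in at least 5 of the 9 tumour samples, those whose pattern was most like each member were found by Pearson correlation over the 9 samples, as a description. Cxcl12 was nearest to Nfatc4 (0.94), the progenitor and endothelial antigen gene Cd34 (0.93) and Chuk (0.89). Cxcl16 was nearest to Cd81 (0.95), the adhesion molecule gene Vcam1 (0.94) and App (0.93). Ccl21a was nearest to Il1b (0.90) and Ripk2 (0.88), and Ccl19 to Gata3 (0.95), Cxcl10 (0.92) and Tnfrsf1b (0.92). Cxcr4 was nearest to Nt5e (0.98), the leukocyte integrin gene Itgb2 (0.95) and the myeloid receptor gene Trem2 (0.95). Cx3cr1 was nearest to the Fc receptor gene Fcgr1 (0.91), Jak1 (0.89) and Ccr1 (0.88), and Cx3cl1 to Tfeb (0.85), Ifngr1 (0.84) and Cd99 (0.83). Cxcl13, Cxcr5 and Cxcr6 were above background in too few tumours for this. With each host's mean removed, the correlations ran from 0.66 (Cx3cl1 with Cd99) to 0.96 (Cxcl16 with Cd81). Those of Ccl19 were then 0.85 with Gata3, 0.80 with Cxcl10 and 0.71 with Tnfrsf1b.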

How the data were processed

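Total RNA of 12 samples was extracted with the PureLink RNA Mini Kit and counted on the NanoString nCounter system, per the labels' protocols. The authors deposited log2 values for 750 genes and a table of linear signal for 749, and log2 of that signal equals the log2 table within 5.4e-09. Software, normalization genes and background treatment were not given in the sources used here. All deposited signal values (100%) were whole multiples of 1 step per sample within 0.02 counts, so 1 count was worth 0.694 to 1.35 units, and counts were recovered by division. The edgeR test on them called 68 genes between hosts.

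Groups came from the labels, and 0 columns belonged to no sample. limma 3.58.1 (lmFit, eBayes, two-sided, R 4.3.3) was run on the log2 values of tumours alone for SCID against WT, and of all 3 groups in 1 fit against the line, with Benjamini-Hochberg adjustment over 750 genes and no pseudocount or filter. Background is the 95th percentile of counts of T and B cell genes in the line. Where all samples of the dimmer group were at background, folds are bounds from the mean of the higher of background and own value. Members and lists were chosen with earlier results of these data known. Named genes were the members, Ccr7, the 3 largest called chemokine changes and the 3 nearest patterns per member, of which 1 is not reported here. Symbols are those of the files, and all 10 members were found in the RefSeq gene table. edgeR 4.0.16 and SciPy 1.17.1 were used for alternatives and exact tests, and the fits were tested on simulated data. Alternatives covered scaling, background, filters, trend, blocks and each sample left out. Title numbers shared by tumours are not explained in the labels.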

Additional observations from a re-analysis of the deposited data

How the results depend on the processing

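Between SCID and WT tumours 119 genes were called as deposited, against 64 with TMM scaling (56 lower, 8 higher), 67 with values raised to background and 68 with edgeR (58 lower, 10 higher), and 37 lower and 49 higher with median scaling. Of the 10 members 2 were called, against 1 with median scaling, TMM, edgeR or values raised to 20 counts, and 0 with values raised to background. Leaving out 1 sample gave 67 to 158 genes and 1 to 3 members, the lowest of each without WT tumour 5. Against the line, WT tumours had 6 members called under median scaling (3 lower, 3 higher) in place of 10, and SCID tumours 7 (3 lower, 4 higher).

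Signs turned as follows, in log2 units. SCID against WT: median scaling gave Cxcl12 0.33, Cxcl13 0.15, Cxcl16 0.014, Cx3cl1 0.17, Cxcr5 0.53 and Cx3cr1 0.17, TMM gave Cxcl12 0.045 and Cxcr5 0.24, and edgeR gave Cxcl12 0.19, Cxcl13 0.0012 and Cxcr5 0.26. Cxcr5 was 0.012 with widely expressed genes, 0.0087 in the larger title series, 0.031 without the averaged WT pair and -0.24 to 0.034 leaving out 1 sample, where Cxcl12 spanned -0.55 to 0.0074. WT against the line: median scaling gave Cxcl13 -0.93, Cxcl16 -1.49, Ccl19 -0.16, Cx3cl1 -1.77, Cxcr5 -0.18 and Cxcr6 -0.26, and Cx3cl1 was -0.20 with TMM and -0.20 with edgeR. SCID against the line: median scaling gave Cxcl13 -0.78, Cxcl16 -1.47, Ccl19 -0.65, Cx3cl1 -1.60 and Cxcr6 -1.54, TMM gave Cxcl16 -0.19, Cx3cl1 -0.32 and Cxcr6 -0.26, and edgeR gave Cxcl16 -0.14, Cx3cl1 -0.27 and Cxcr6 -0.21. The cause was not tested.

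Same-numbered SCID and WT tumours did not deviate together (correlations -0.41 to 0.24, 0 of 5 best with their own number). Taking WT tumours 2 and 3 as separate samples gave 157 genes, Ccl19 at -1.22 (limma adjusted p = 0.00861), Cxcr6 at -1.89 (limma adjusted p = 0.0049) and Cxcr4 at -0.63 (limma adjusted p = 0.0656). On those same samples, the number as a replicate block gave 161 genes and 3 members, Cxcr4 included (limma adjusted p = 0.0469), and the number in the title as a random block gave 142 genes, Ccl19 (limma adjusted p = 0.0104) and Cxcr6 (limma adjusted p = 0.00643).

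Signal limits Cxcr5, Cxcl13, Cxcr6 and, in SCID tumours and the line, Ccl19, which lie at or near background. Cxcr6 was above background in 1 of 4 WT samples. The line has 2 samples.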
